A study of Homo sapiens with 6 samples.

Results

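The 10 genes described here encode proteins that let glucose into the cell and set the pace and the end product of glycolysis. They are the glucose carriers SLC2A1 and SLC2A3, the hexokinases HK1 and HK2, the platelet-type phosphofructokinase PFKP, the bifunctional enzymes PFKFB3 and PFKFB4, the pyruvate kinase PKM, the lactate dehydrogenase subunit LDHA and the pyruvate dehydrogenase kinase PDK1. They were taken by name from a table of 58299 genes. All 10 were found and all 10 passed the filter on low counts that left 15575 genes for testing. RNA was sequenced in 6 libraries of AC16 cells, an established human line made by fusing adult ventricular heart muscle cells with transformed fibroblasts. The 3 treated libraries came from cells given 100 nM CDDO-Me for 24 h and then 100 nM doxorubicin for 48 h. The 3 control libraries had only the solvent, 0.1% DMSO, over the same 72 h. CDDO-Me (bardoxolone methyl) is a triterpenoid that activates the transcription factor NRF2, and doxorubicin is a chemotherapy drug that poisons topoisomerase II and is known to harm the heart. Both groups grew in medium with 25 mM glucose, 1 mM pyruvate and 10% serum, at passages 3 to 10. The labels do not say whether CDDO-Me stayed on the cells during doxorubicin, and cells given 1 drug alone were not analysed here, so no change can be assigned to either drug.

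Glucose enters most cells through facilitative carriers and is trapped by hexokinase. Phosphofructokinase is the main committed step, and the PFKFB enzymes make and remove its strongest allosteric activator. At the end of the pathway pyruvate is either reduced to lactate, where LDHA is a main subunit, or carried into mitochondria, where PDK1 blocks its oxidation by switching off pyruvate dehydrogenase. Adult heart muscle mostly burns fatty acids, and proliferating cultured lines rely more on glycolysis. Hypoxia-inducible factors and MYC are known to raise many of these genes, and several p53 targets curb the pathway.

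The libraries held 17150259 to 20193957 counts in genes. Over the 6 libraries the first principal component held 82.5% of the variance and the second 5.53%. Of 12 cardiomyocyte markers, 8 had 0 counts in every DMSO library, among them MYH6, MYH7, ACTN2 and NKX2-5, and TNNI3 was at 0 in all 6 libraries. GATA4 (called lower) and TTN (called higher) were the only ones of the 12 that passed the filter. The summed level of these 12 markers was 25.4 to 30.9 CPM in the treated and 25.6 to 27.8 CPM in the DMSO libraries. The summed level of 9 fibroblast markers was 5284 to 5682 CPM in the treated and 14180 to 15414 CPM in the DMSO libraries. All 9 were called lower, as were 31.2% of all tested genes. Summed over 5 endothelial markers the level was 11.4 to 12.1 CPM in the treated and 21.6 to 24.4 CPM in the DMSO libraries. TEK carried that decrease (log2 change -1.56), while KDR (0.77) was called higher from a low level. VWF was not called and CDH5 did not pass the filter. PECAM1 had 25 to 40 counts in the treated and 2 to 15 in the DMSO libraries. It passed the filter only through the treated libraries, where it is high, so its call is not read as a result. Summed over 4 blood cell markers the level was 3.95 to 4.95 CPM in the treated and 1.27 to 1.49 CPM in the DMSO libraries. PTPRC carried most of that increase, with means of 3.82 CPM in the treated and 1.11 CPM in the DMSO libraries. CD68 was not called, and CD3E and HBB did not pass the filter. The part of these shifts in the results below was not tested. In bulk RNA, fewer cells of a kind and less RNA per cell cannot be told apart. Nothing in the labels says that the replicates were separate cultures, so a p-value here reflects library-to-library spread that could be technical.

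Start-site sequences are shown for the member with the largest increase, PFKFB4, and the 2 with the largest decreases, LDHA and PDK1. They are RefSeq windows on GRCh38.p14 that run from 250 bases before to 50 after an annotated start, written 5′ to 3′ on the strand of the gene. Capitals mark ACGTG and GCGTG on either strand, the cores that hypoxia-inducible factors bind, and TGACNNNGC, the antioxidant response core bound by NRF2. LDHA has 2 annotated windows and both are shown. PDK1 has 2, and the one with a match is shown.
PFKFB4, chr3:48556754-48557053, minus strand: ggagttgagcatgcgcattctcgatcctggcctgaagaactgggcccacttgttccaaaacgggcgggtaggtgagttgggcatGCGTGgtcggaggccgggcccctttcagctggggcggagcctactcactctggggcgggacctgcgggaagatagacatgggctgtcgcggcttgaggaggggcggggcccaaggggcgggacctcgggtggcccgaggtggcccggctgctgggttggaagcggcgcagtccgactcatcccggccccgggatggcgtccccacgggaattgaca
LDHA upstream start, chr11:18394313-18394612, plus strand: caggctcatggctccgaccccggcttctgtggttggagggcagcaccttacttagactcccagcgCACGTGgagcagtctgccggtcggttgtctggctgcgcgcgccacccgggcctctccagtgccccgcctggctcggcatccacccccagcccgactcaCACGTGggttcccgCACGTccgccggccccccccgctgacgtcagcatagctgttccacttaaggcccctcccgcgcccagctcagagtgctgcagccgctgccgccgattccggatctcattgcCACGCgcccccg
LDHA downstream start, chr11:18396101-18396400, plus strand: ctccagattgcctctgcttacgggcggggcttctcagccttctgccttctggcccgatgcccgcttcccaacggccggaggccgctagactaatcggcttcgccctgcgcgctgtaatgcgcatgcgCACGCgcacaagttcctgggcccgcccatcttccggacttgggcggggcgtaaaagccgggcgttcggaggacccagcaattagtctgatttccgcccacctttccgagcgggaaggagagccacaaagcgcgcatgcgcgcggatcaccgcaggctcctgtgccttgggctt
PDK1, chr2:172555840-172556139, plus strand: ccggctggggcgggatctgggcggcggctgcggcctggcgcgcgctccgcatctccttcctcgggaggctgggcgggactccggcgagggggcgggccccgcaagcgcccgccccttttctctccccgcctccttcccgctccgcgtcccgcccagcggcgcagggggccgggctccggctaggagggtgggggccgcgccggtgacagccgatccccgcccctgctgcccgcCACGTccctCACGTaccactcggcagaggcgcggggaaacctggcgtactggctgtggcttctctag

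The upstream LDHA window held 5 matches to ACGTG on either strand. Of these, 4 lie in 2 copies of CACGTG, the E-box bound by MYC, since that palindrome contains ACGTG on both strands. PDK1 held 2 matches to ACGTG and none to CACGTG. PFKFB4 held no ACGTG and 1 GCGTG. None of the 4 windows held TGACNNNGC. The GC box GGGCGG, not capitalised, had 5 matches in the PFKFB4 window, 7 in that of PDK1, 4 in the downstream and 0 in the upstream LDHA window. For 9 of the 10 members 22 windows were found, and SLC2A3 had no entry. Of the 22 windows, 27.3% held ACGTG, against 21.4% of 35116 windows of all genes. For GCGTG the shares were 50% and 36.5%, for CACGTG 13.6% and 7.26%, for TGACNNNGC 9.09% and 13.3%, and for GGGCGG 63.6% and 45%. A match describes these letters and is not evidence of binding. The counts are per gene, so which start was used is unknown.

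The 10 genes did not move together. PFKFB4 rose 3.56-fold, SLC2A3 and PFKFB3 rose by 32.2% and 28.5%, and SLC2A1 and PKM were not called. LDHA was 53.6% lower, PDK1 41.5% lower, and HK1, HK2 and PFKP were 14.0% to 23.4% lower. By edgeR's quasi-likelihood test at an adjusted p below 0.05, 3 members were higher, 5 lower and 2 not called. Of all tested genes 63.5% were called, 32.3% higher and 31.2% lower, so 8 called members of 10 is not far from the background. The groups did not overlap in 8 of the 10 members, against 66.7% of all tested genes. The median log2 change of the 10 was -0.11, beside 0.02 over all tested genes. A change of at least 2-fold was called in PFKFB4 upwards and LDHA downwards, and 15.5% of tested genes passed that limit, 10.9% higher and 4.62% lower. The plot of the members by library shows these values. Levels below are CPM (library-scaled counts, with TMM factors), and log2 changes are treated minus DMSO.

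**Figure D1:**
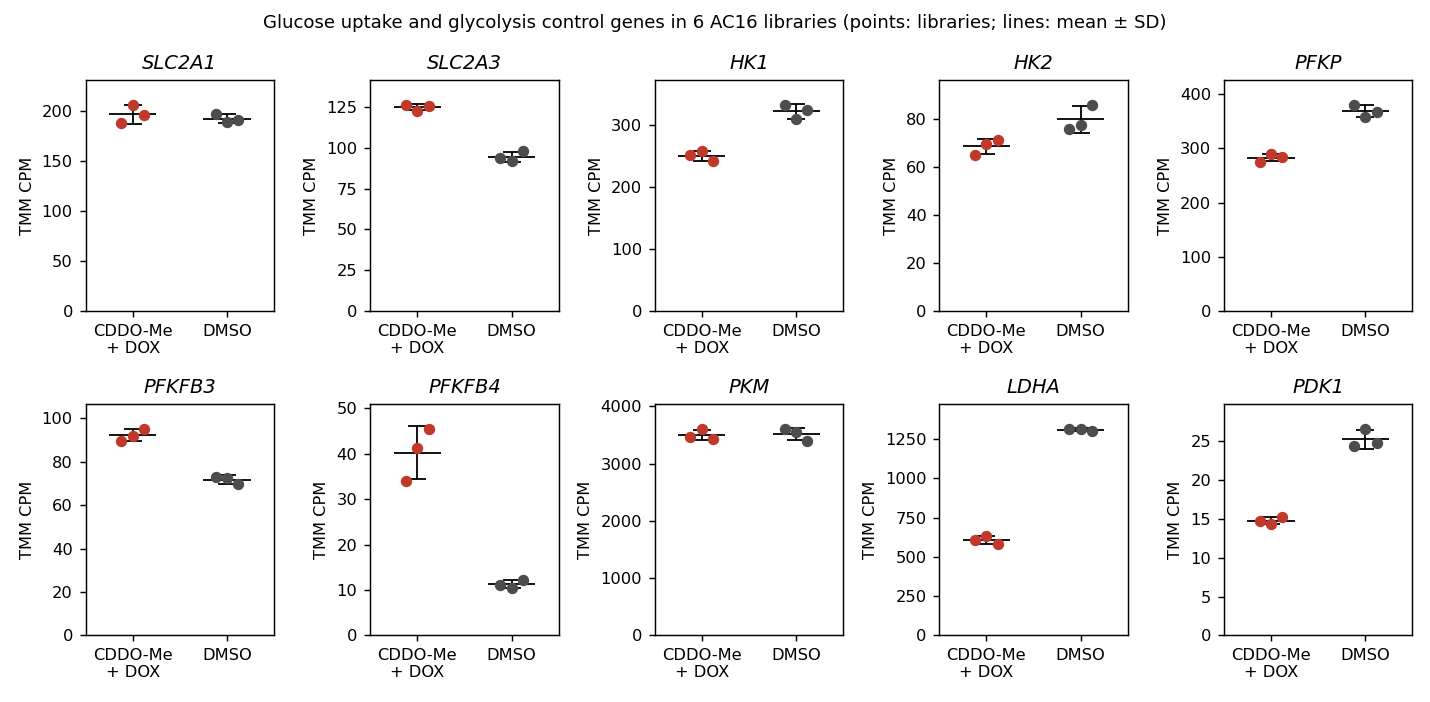
TMM-scaled CPM of the 10 glucose uptake and glycolysis control genes in each library, CDDO-Me and doxorubicin left and DMSO right. Points are libraries, lines are the mean ± SD of 3 libraries, and each axis starts at 0. PFKFB4 stood at 34.0 to 45.4 CPM in treated and 10.4 to 12.2 CPM in DMSO libraries, LDHA at 581 to 635 and 1299 to 1315 CPM, and SLC2A1 and PKM overlap.

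The 2 glucose carriers differed. SLC2A1 (GLUT1, ENSG00000117394, chromosome 1, 42925375 to 42959176) carries basal glucose uptake in many tissues. It stood at 187.9, 206.7 and 196.0 CPM in the treated libraries and at 197.5, 189.2 and 190.8 CPM in the DMSO libraries. The groups overlap, and the log2 change of 0.03 (SE 0.049) was not called (edgeR adjusted p = 0.578). Its 95% interval ran from -0.07 to 0.13. SLC2A3 (GLUT3, ENSG00000059804, chromosome 12, 7919230 to 7936275), a carrier with high glucose affinity known from neurons, stood at 126.6, 122.8 and 125.5 CPM in the treated libraries. In the DMSO libraries it stood at 93.8, 91.8 and 97.9 CPM. All treated libraries lay above all DMSO libraries, with a log2 change of 0.40 (SE 0.053, edgeR adjusted p = 9.15e-10). SLC2A14, its near-identical neighbour, had 7 to 14 counts in the treated and 5 to 9 in the DMSO libraries and did not pass the filter. Reads shared with such copies could have been split or dropped in counting.

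Both hexokinases were lower. HK1 (ENSG00000156515, chromosome 10, 69269984 to 69401884), the isozyme of most tissues, stood at 252.5, 258.8 and 242.6 CPM in the treated libraries, against 333.9, 309.9 and 325.8 CPM in the DMSO libraries. The log2 change was -0.36 (SE 0.047, edgeR adjusted p = 7.27e-10). HK2 (ENSG00000159399, chromosome 2, 74833981 to 74893359), the isozyme of insulin-sensitive muscle and of many tumours, stood at 65.1, 69.9 and 71.3 CPM in the treated libraries, against 76.2, 77.5 and 86.2 CPM in the DMSO libraries. The groups did not overlap, but its change was the smallest of the called members, -0.22 (SE 0.059, edgeR adjusted p = 0.0011), and with scaling by total counts alone it was not called (-0.09, edgeR adjusted p = 0.178). The related HKDC1 averaged 2.92 ± 0.323 CPM in the treated and 2.15 ± 0.540 CPM in the DMSO libraries (SD, n = 3 each) and was not called (edgeR adjusted p = 0.106). With total-count scaling HKDC1 was called higher (log2 change 0.57, edgeR adjusted p = 0.0355).

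PFKP (ENSG00000067057, chromosome 10, 3066333 to 3137712) encodes a subunit of phosphofructokinase, which also takes liver-type (PFKL) and muscle-type (PFKM) subunits. It stood at 275.8, 289.0 and 283.4 CPM in the treated libraries, against 381.1, 358.2 and 367.5 CPM in the DMSO libraries. The log2 change was -0.38 (SE 0.046, edgeR adjusted p = 7.61e-11). PFKL went the other way, with 205.4, 211.9 and 212.2 CPM in the treated libraries and 187.7, 186.5 and 184.5 CPM in the DMSO libraries, a log2 change of 0.17. PFKM was lower by a similar amount, with a log2 change of -0.17 that was not called with total-count scaling (-0.05). The 3 subunit genes thus moved in both directions without overlap between groups.

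All 3 tested genes of the PFKFB enzymes were called higher, as were 32.3% of all tested genes. PFKFB4 (ENSG00000114268, chromosome 3, 48517684 to 48562015) stood at 34.0, 41.2 and 45.4 CPM in the treated libraries, against 11.2, 10.4 and 12.2 CPM in the DMSO libraries. The treated libraries were spread more widely than those of any other member relative to their mean, yet the lowest of them was well above the highest DMSO library. The log2 change was 1.83 (SE 0.096, edgeR adjusted p = 7.35e-26). Leaving out 1 library moved it between 1.74 and 1.94. PFKFB3 (ENSG00000170525, chromosome 10, 6144934 to 6254644), whose kinase activity far exceeds its phosphatase activity, stood at 89.8, 91.8 and 95.1 CPM in the treated libraries. In the DMSO libraries it stood at 73.2, 72.6 and 69.6 CPM, which gave a log2 change of 0.36 (SE 0.056, edgeR adjusted p = 8.46e-08). PFKFB2, the form known from heart, stood at 14.9, 16.1 and 19.0 CPM in the treated libraries and at 9.48, 7.13 and 9.42 CPM in the DMSO libraries, a log2 change of 0.94 (SE 0.12). PFKFB1 had 5 to 10 counts in the treated and 1 to 6 in the DMSO libraries and was not tested.

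PKM (ENSG00000067225, chromosome 15, 72199029 to 72231822) makes pyruvate in the last step of glycolysis and was the most abundant member. It stood at 3466, 3599 and 3429 CPM in the treated libraries and at 3605, 3549 and 3394 CPM in the DMSO libraries. The groups overlap, and the log2 change of -0.01 (SE 0.044) was not called (edgeR adjusted p = 0.896, 95% interval -0.09 to 0.08). The count does not separate the M1 and M2 splice forms.

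LDHA (ENSG00000134333, chromosome 11, 18394388 to 18408425) had the largest decrease. It encodes the M subunit of lactate dehydrogenase, which favours making lactate. It stood at 606.1, 635.1 and 581.0 CPM in the treated libraries, against 1315, 1315 and 1299 CPM in the DMSO libraries. The log2 change was -1.11 (SE 0.045, edgeR adjusted p = 2.17e-31), the 570th lowest of the 15575 tested genes. LDHB, which encodes the H subunit, stood at 772.8, 730.2 and 703.7 CPM in the treated and at 812.5, 841.3 and 807.6 CPM in the DMSO libraries. Its log2 change of -0.16 (SE 0.045) was called with TMM and not with total-count scaling (-0.03). The 6 LDHA pseudogenes in the table together had 13 to 35 counts a library, at most 0.153% of the LDHA count.

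PDK1 (ENSG00000152256, chromosome 2, 172555373 to 172608669) was also lower. It stood at 14.7, 14.3 and 15.2 CPM in the treated libraries, against 24.4, 26.6 and 24.8 CPM in the DMSO libraries. The log2 change was -0.77 (SE 0.092, edgeR adjusted p = 5.22e-11). PDK2, another kinase of the same family, was higher, with 22.5, 24.7 and 21.1 CPM in the treated libraries and 16.9, 16.0 and 17.1 CPM in the DMSO libraries, a log2 change of 0.45 (SE 0.093). Another gene overlaps 38.6% of the exon bases of PDK2, and the libraries carry no strand information. PDK3 was low and not called (log2 change 0.31, edgeR adjusted p = 0.237), and PDK4 had 0 to 5 counts in the treated and 0 in the DMSO libraries.

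The mix of isozymes within each step was measured as the share of counts per kilobase of exon. For 3 libraries against 3 the smallest p of an exact permutation test is 0.1, so none of the 17 shares could pass 0.05. Shares below whose groups did not overlap all had the exact two-sided permutation p of 0.1, or 0.155 adjusted over the 17 shares. LDHA made up 27.4%, 29.5% and 28.4% of the lactate dehydrogenase signal in the treated libraries, against 43.7%, 42.9% and 43.6% in the DMSO libraries. The 2 sets are far apart compared with their spread. PFKFB4 made up 28% ± 2.31 of the PFKFB signal in the treated and 12.7% ± 1.09 in the DMSO libraries (SD, n = 3 each), while PFKFB3 made up 64.4% ± 2.36 and 80.8% ± 1.67. PFKFB3 therefore remained the larger part in both groups. PDK1 made up 15.6% ± 0.762 of the signal of 4 kinases in the treated and 29.9% ± 3.55 in the DMSO libraries, and PDK2 65.1% ± 3.93 and 53.4% ± 1.99.

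Smaller shifts were seen at the other steps. PFKP made up 61.1% ± 0.440 of the phosphofructokinase signal in the treated and 67.7% ± 0.920 in the DMSO libraries, and PFKL 24.6% ± 0.134 and 18.5% ± 0.306. SLC2A3 made up 32.8% ± 1.39 of the signal of the 2 carriers in the treated and 27.4% ± 0.787 in the DMSO libraries. The share of HK2 among the 2 hexokinases was 22.1% ± 1.14 in the treated and 20.4% ± 1.21 in the DMSO libraries, with overlapping groups (exact permutation p = 0.2). Exon length here is the union of all annotated exons. With the length of the principal transcript instead, LDHA made up 34.5% ± 1.17 in the treated and 50.4% ± 0.469 in the DMSO libraries, so which of LDHA and LDHB is higher in DMSO cells depends on the length used, and the direction of the difference does not.

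**Figure D2:**
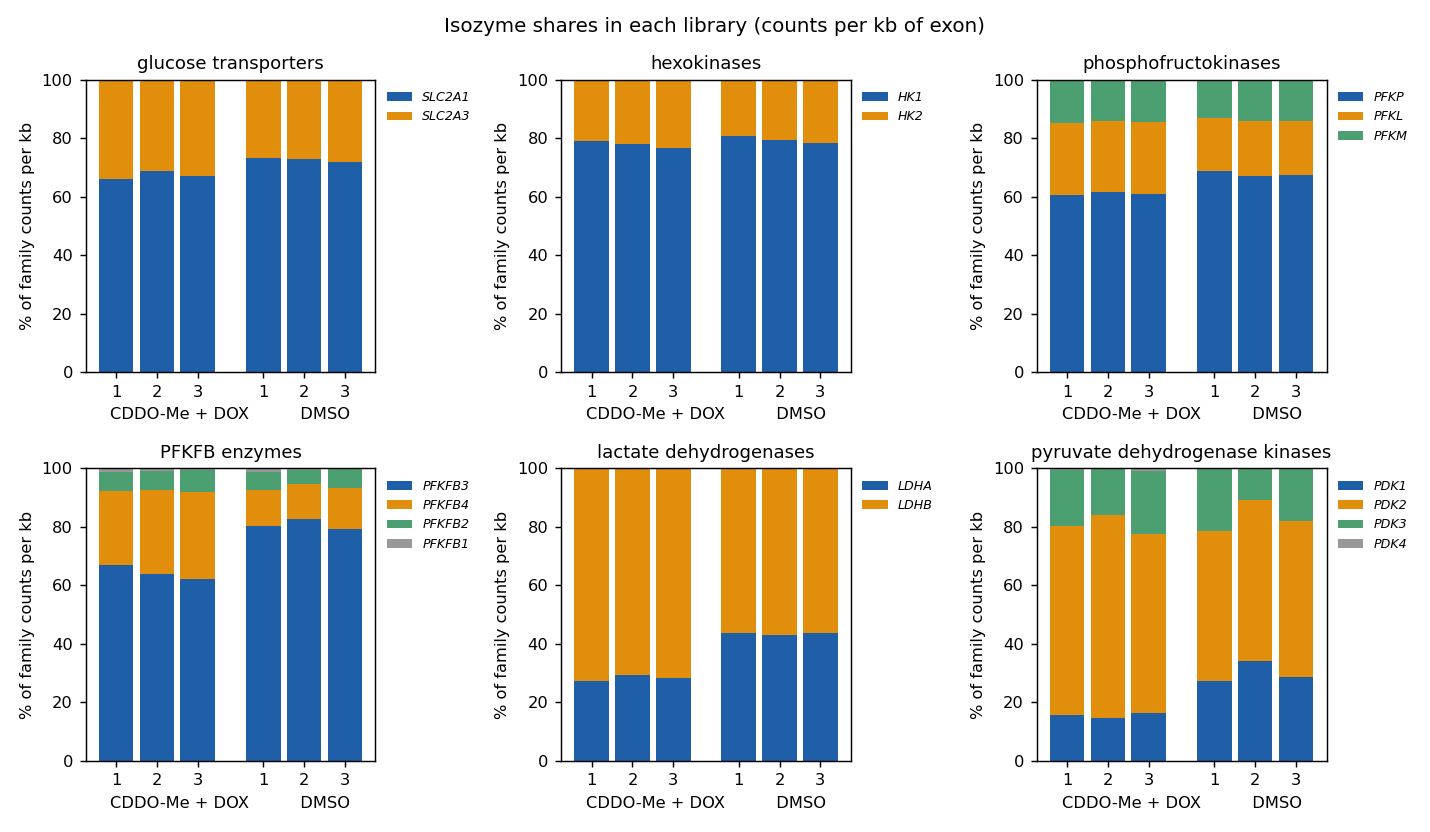
Share of each isozyme in the counts per kilobase of exon of its family, in percent, 1 bar a library, with treated libraries 1 to 3 left and DMSO libraries 1 to 3 right. The LDHA part of the lactate dehydrogenase bars is 27.4% to 29.5% in treated and 42.9% to 43.7% in DMSO libraries, the PFKFB4 part is larger and the PDK1 part smaller in treated libraries, and the hexokinase bars overlap.

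Per length, as TPM (counts scaled to exon length and library total) from the exon union, PKM was highest, at 1827 ± 31.7 TPM in the treated and 1751 ± 44.5 TPM in the DMSO libraries (SD, n = 3 each). LDHA followed at 438 ± 15.6 and 900.2 ± 2.81 TPM, then PFKP at 262 ± 5.71 and 326 ± 9.22 TPM. In the treated libraries SLC2A1 (187 ± 8.19 TPM) and HK1 (179 ± 4.20 TPM) overlapped, while in the DMSO libraries HK1 (219 ± 8.0 TPM) stood above SLC2A1 (174 ± 3.31 TPM) without overlap. SLC2A3 had 90.9 ± 2.04 TPM in the treated and 65.5 ± 2.43 TPM in the DMSO libraries. PFKFB3 had 67.6 ± 2.44 and 50.1 ± 1.08 TPM, and HK2 50.8 ± 2.54 and 56.3 ± 4.16 TPM, so these 2 changed places between the groups. PFKFB4 (29.5 ± 4.39 TPM) stood well above PDK1 (4.44 ± 0.179 TPM) in the treated libraries. In the DMSO libraries PFKFB4 (7.87 ± 0.655 TPM) and PDK1 (7.24 ± 0.350 TPM) overlapped. With principal transcript lengths the order from PKM to PFKP and the place of PDK1 were the same in both groups, while HK1 stood above SLC2A1 and PFKFB3 above HK2 in both groups.

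Around the 10 genes, 112 other genes of the pathway in 8 lists gave 93 that passed the filter, 31 of them higher and 38 lower. Their median log2 change was -0.03, beside 0.02 over all tested genes. These counts and this median include GCKR and CA9, which passed the filter only through a single group, as given below. The counts of each list below stand beside the 63.5% of all tested genes that were called, 32.3% higher and 31.2% lower. Of 16 isozymes and family members of the same steps, 7 were tested, 3 were higher (PFKFB2, PDK2 and PFKL) and 2 lower (PFKM and LDHB). The other 9 had 0 to 23 counts in a library. With total-count scaling 4 of the 7 were higher and 0 lower.

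Of 13 other glycolytic enzymes 11 were tested, 7 were lower and 1 higher, and the median log2 change was -0.22. That is 72.7% called, near the 63.5% of all tested genes. With total-count scaling 6 were lower and 1 higher, at a median of -0.10. The largest decreases were in ALDOC, a brain-type aldolase (5.11 ± 0.844 CPM in the treated and 8.67 ± 0.865 CPM in the DMSO libraries, log2 change -0.76), GPI, which converts glucose phosphate to fructose phosphate (239 ± 7.66 and 374 ± 11.6 CPM, -0.65), and ENO1, the common enolase (2133 ± 54.0 and 3238 ± 106 CPM, -0.60). GAPDH averaged 2554 ± 101 CPM in the treated and 2951 ± 151 CPM in the DMSO libraries, a log2 change of -0.21 that was not called with total-count scaling (-0.08, edgeR adjusted p = 0.0873). ENO2, the neuronal enolase, was the 1 enzyme called higher (log2 change 0.15, edgeR adjusted p = 0.0209) and is named after its values were seen. It was not called without treated replicate 3, without DMSO replicate 3 or without the filter. ALDOA, also named after its values were seen, had only 149 to 174 counts in the treated and 121 to 145 in the DMSO libraries. Other genes overlap 53.5% of its exon bases, so its level is uncertain. The plot of the pathway by step places these genes in order.

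**Figure D3:**
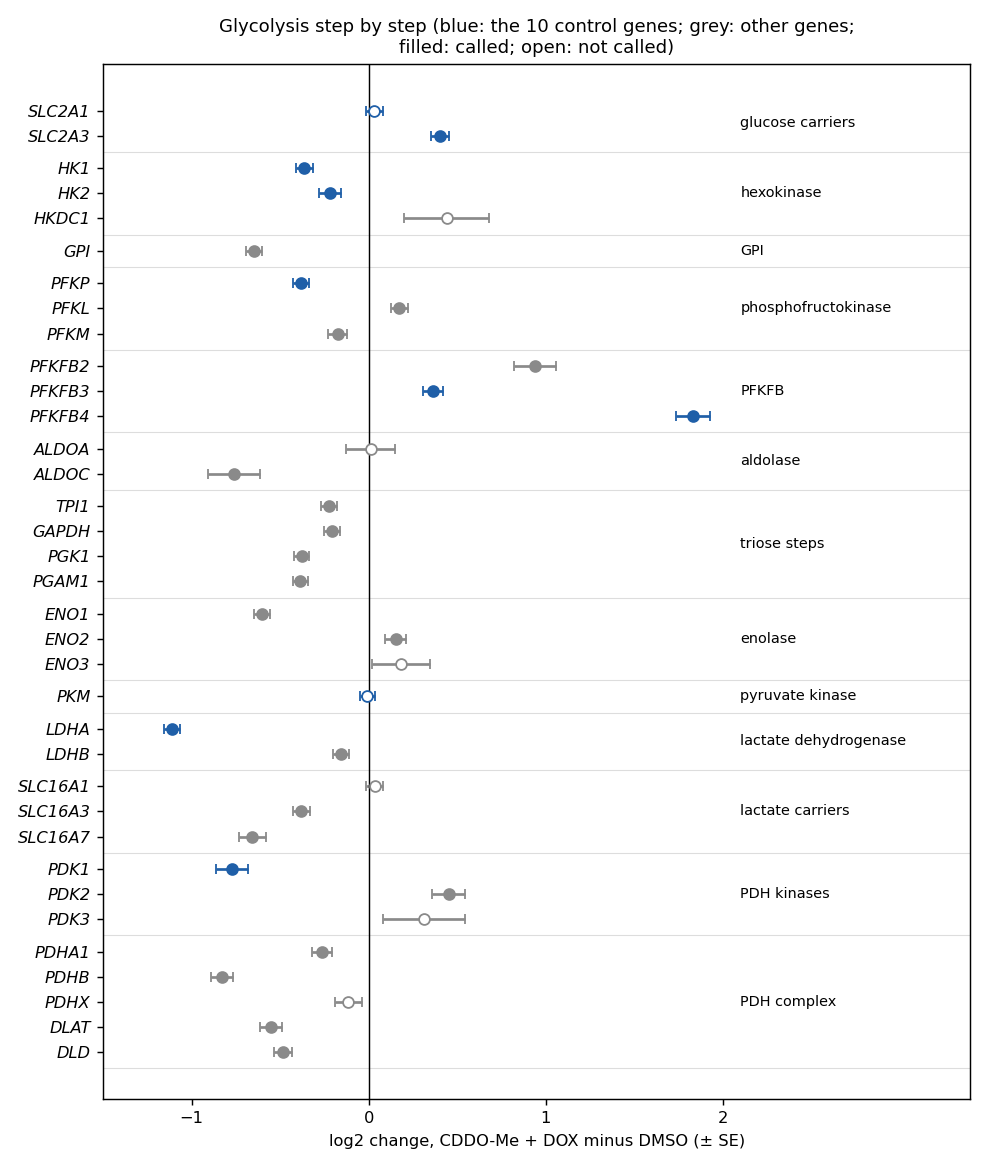
Log2 change, CDDO-Me and doxorubicin minus DMSO, with its SE, for genes of glucose uptake, glycolysis, lactate export and pyruvate oxidation from top to bottom. Blue marks the 10 control genes, grey the others, and filled points were called. PFKFB4 (1.83) and PFKFB2 (0.94) lie farthest right and LDHA (-1.11) farthest left of the genes drawn, which do not include SLC16A8 (1.37) or PC (-1.34), and GPI, ALDOC and ENO1 lie left of 0.

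At the exits of glycolysis the carriers and the mitochondrial entry moved both ways. Of 14 other sugar and lactate carriers 12 were tested, 4 were higher and 3 lower, at a median log2 change of 0.26, or 6 and 3 with total-count scaling. BSG, the chaperone that brings lactate carriers to the membrane, was higher (718 ± 23.8 CPM in the treated and 510.9 ± 23.5 CPM in the DMSO libraries, log2 change 0.49). The monocarboxylate carrier genes SLC16A8 (2.52 ± 0.0592 and 0.971 ± 0.111 CPM, log2 change 1.37) and SLC16A7 (27.7 ± 1.69 and 43.7 ± 4.49 CPM, -0.66) went opposite ways. SLC16A3, the lactate exporter MCT4, named after its values were seen, was lower (239.6 ± 13.4 and 312 ± 14.5 CPM, -0.38). Of 11 genes of mitochondrial pyruvate entry 2 were higher and 5 lower, with a median of -0.11. PC, which carboxylates pyruvate, averaged 16.5 ± 0.304 CPM in the treated and 41.7 ± 1.93 CPM in the DMSO libraries (log2 change -1.34). The pyruvate dehydrogenase genes PDHB (-0.83) and DLAT (-0.55) were also lower.

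In the glycogen and hexosamine branches, which draw sugar phosphates away from glycolysis, 6 of 16 tested genes were higher and 7 lower, at a median log2 change of -0.01, or 8 higher and 3 lower with total-count scaling. The paralogs GFPT2 (95.2 ± 0.517 CPM in the treated and 31.3 ± 0.925 CPM in the DMSO libraries, log2 change 1.60) and GFPT1 (0.67), which start hexosamine synthesis, rose. UAP1, which completes it, fell (228 ± 7.42 and 370.5 ± 7.22 CPM, -0.70).

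Among 8 genes whose products curb glucose uptake or glycolysis, TIGAR, RRAD, TXNIP and ARRDC4 were called at least 2-fold higher, as were 10.9% of all tested genes. GCKR, a glucokinase inhibitor named after its values were seen, had 15 to 21 counts in the treated and 2 to 7 in the DMSO libraries. It passed the filter only through the treated libraries, so its being higher is no support for the list. The other 3 did not pass the filter. The median log2 change over the 5 that did was 2.0 with GCKR counted in, so it is not read as a result for the list. This list was assembled with earlier results of these data known and is no independent support for its direction. TIGAR, a p53 target that removes the activator of phosphofructokinase, stood at 180.4, 168.1 and 166.8 CPM in the treated libraries, against 40.2, 46.3 and 42.7 CPM in the DMSO libraries, a log2 change of 2.0 (SE 0.058, edgeR adjusted p = 5.73e-39). RRAD, a small GTPase and p53 target, stood at 18.1, 16.4 and 18.6 CPM in the treated libraries, against 0.919, 1.03 and 1.19 CPM in the DMSO libraries, a log2 change of 4.07 (SE 0.17). TXNIP, an arrestin-like protein that lowers glucose uptake by the carriers, stood at 343.1, 344.2 and 341.3 CPM in the treated libraries, against 129.6, 128.6 and 122.5 CPM in the DMSO libraries, a log2 change of 1.43 (SE 0.048). Its relative ARRDC4 rose by 2.20 (SE 0.12) on the log2 scale.

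Among 14 tested regulators 4 were higher and 6 lower, or 6 higher and 4 lower with total-count scaling, with a median log2 change of -0.13. The 2 hypoxia-inducible alpha subunits in this list, HIF1A and EPAS1, went opposite ways. HIF1A stood at 390.9, 409.7 and 397.9 CPM in the treated libraries, against 690.9, 691.8 and 707.5 CPM in the DMSO libraries, a log2 change of -0.80 (SE 0.045, edgeR adjusted p = 2.08e-24). EPAS1 stood at 360.3, 422.1 and 366.8 CPM in the treated libraries, against 90.6, 90.6 and 96.9 CPM in the DMSO libraries, a log2 change of 2.05 (SE 0.054, edgeR adjusted p = 2.08e-41). MYC stood at 41.8, 38.2 and 38.4 CPM in the treated libraries, against 76.1, 74.2 and 80.4 CPM in the DMSO libraries, a log2 change of -0.96 (SE 0.063). FOXK1, a forkhead factor linked to glycolytic gene expression, rose by 0.97 (SE 0.066). These are transcript levels, and the alpha subunits are known to be controlled mainly through protein stability.

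Hypoxia-inducible factor targets outside glycolysis did not move in 1 direction either. Of 17 tested, 6 were higher and 8 lower, and the median log2 change was -0.21, beside the 32.3% higher and 31.2% lower of all tested genes. With total-count scaling 7 were higher and 7 lower, at a median of -0.08. Both settings count CA9, discussed below, among the lower genes and in the median. The medians and the counts of lower genes are therefore not read as a result for the list. ANGPTL4, a lipase inhibitor, stood at 17.7 ± 0.524 CPM in the treated and 1.07 ± 0.318 CPM in the DMSO libraries (log2 change 4.04), and NDRG1 at 169 ± 1.67 and 49.99 ± 2.93 CPM (1.76). CA9, a carbonic anhydrase often used as a hypoxia marker, was low, at 16, 7 and 5 counts in the treated and 24, 24 and 35 counts in the DMSO libraries. It passed the filter only through the DMSO libraries, where it is high, so its call is not read as a result, and another gene overlaps 38.5% of its exon bases. ADM, named after its values were seen, fell by 1.06 on the log2 scale.

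**Figure D4:**
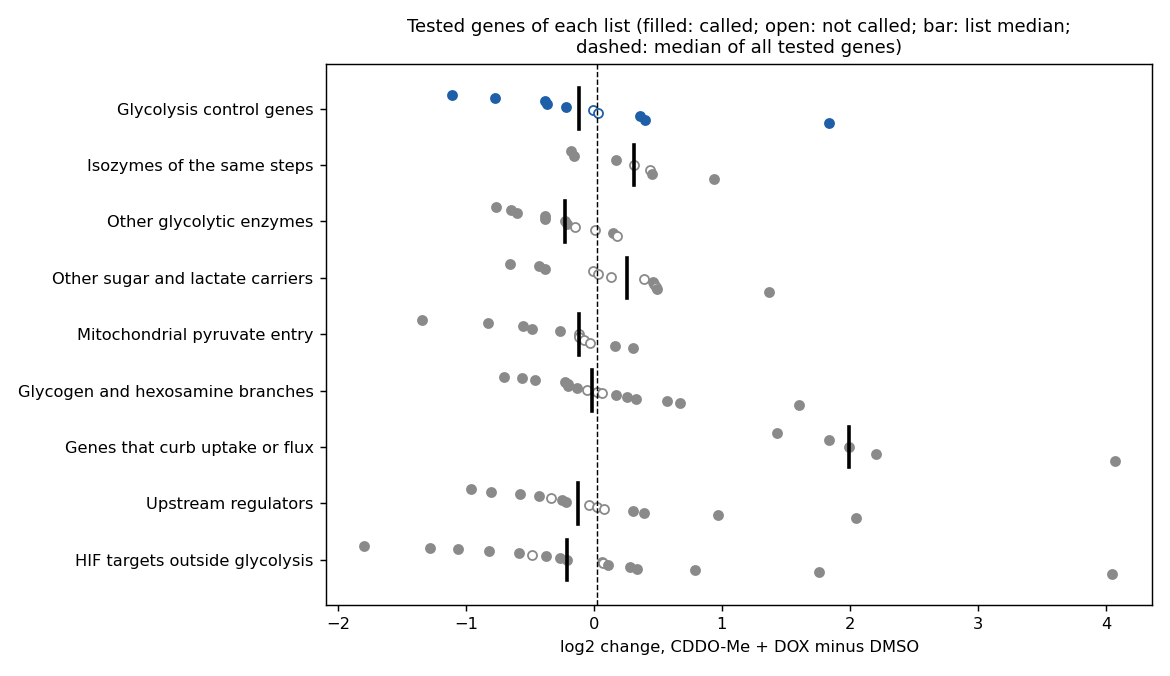
Log2 change, CDDO-Me and doxorubicin minus DMSO, of every tested gene in the 10 control genes and 8 related lists. Points are genes, filled where called, thick bars are list medians and the dashed line is the median of all 15575 tested genes (0.02). The 5 plotted genes that curb uptake or flux lie above 1.4, GCKR among them, and the other lists spread to both sides of 0. CA9 is among the plotted hypoxia-inducible factor targets and counts towards their median.

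The pattern of PFKFB4 over the 6 libraries was most like that of ZNF611, MED29 and AK3, among 13046 other protein-coding genes. The Pearson correlations of log2 CPM (with 0.5 CPM added) were 0.9998, 0.9991 and 0.9987. These are descriptions over 6 libraries in 2 groups, in which any gene that differs between the groups correlates. Their log2 changes were 0.58, 0.52 and 0.45, well below the 1.83 of PFKFB4.

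All directions above are relative to TMM scaling, under which the median log2 change of all tested genes was 0.02. Scaling by total counts alone moved that median to 0.15 and the share of higher genes among all calls to 63.8%, from 50.8% with TMM. With it 63.9% of tested genes were called, and 5 members were higher and 4 lower, in place of 3 and 5. The median of the members became 0.01, that of the pyruvate entry genes 0.01 and that of the branch genes 0.11. SLC2A1 was then called higher (log2 change 0.16, edgeR adjusted p = 0.0027) and PKM too (0.12, edgeR adjusted p = 0.00932), both close to that shift, and HK2 was not called. The other 7 members kept their direction and call with each of the 4 scalings.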

How the data were processed

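RNA was sequenced from 6 AC16 libraries, made without strand information after poly(A) selection, per the labels' protocols. For each of 58299 Ensembl genes the authors deposited a whole-number count per library with coordinates and exon lengths, per the file headers. STAR, SAMtools, Subread, featureCounts and GRCh38 are named in the submitters' processing notes without versions. The sources used here do not give counting options or an annotation release. Libraries held 17150259 to 20193957 counts. Among the members, counting error is largest where counts are lowest. These were 172 to 225 for PFKFB4 in the DMSO libraries and 291 to 323 for PDK1 in the treated libraries. Symbols came from the reference tables (57717 identifiers matched).

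Genes were filtered with filterByExpr (minimum count 10), which kept 15575, scaled by TMM and tested with edgeR 4.0.16 (glmQLFit, glmQLFTest) in R 4.3.3, with Benjamini-Hochberg adjustment over all tested genes and a threshold of 0.05. The fit was checked on simulated counts in which a small set of genes was changed, in equal numbers up and down. That check does not cover data in which 63.5% of tested genes are called. Standard errors were derived from the F statistic, as the absolute log2 change over its root. Exon overlap used bedtools 2.31.1. The alternatives were other scalings and filters, DESeq2 1.42.0, limma-voom (limma 3.58.1), a threshold of 0.01, a replicate block and leaving out each library. Principal transcript lengths from GENCODE 29 were added as an alternative after the data were seen. Members and gene lists were chosen with earlier results of these data known. Genes named are the 10 members, the tested isozymes, the 3 called genes with the largest change in each list, and TIGAR, TXNIP, HIF1A, MYC and GAPDH. Also named are the untested isozymes SLC2A14, PFKFB1 and PDK4, cell type markers and the genes most like PFKFB4. All other genes were picked after their values were seen and are marked so. The comparison of protein sequences that had been planned was not run.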

Additional observations from a re-analysis of the deposited data

How the results depend on the processing

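The number of members called stayed within 1.5 times of 8 under all 15 alternatives run, as did the counts of the 8 related lists and of all genes. The 41 named genes counted next leave out cell type markers and genes named after their values were seen, such as ENO2, whose lost calls are given above. Of 615 recomputed log2 changes of these 41 genes, 603 kept their direction and side of the threshold. Of the other 12, 7 came with total-count scaling, which moved the median of all genes to 0.15. The other 5 were sign changes of genes near 0 that were not called. PKM, at -0.007, was 0.046 with upper-quartile scaling and 0.0072 with the filter at 1 CPM, and leaving out 1 library gave -0.042 to 0.0064 (above 0 without DMSO replicate 1 or treated replicate 3). SLC2A1, at 0.03, had -0.0079 to 0.063 with 1 library left out (below 0 without treated replicate 2). With total-count scaling PKM was 0.12 and called, SLC2A1 (0.16) and HKDC1 (0.57) became called, and HK2 (-0.09), PFKM (-0.05), LDHB (-0.03) and GAPDH (-0.08) were no longer called. The direction of the shares of the members was the same in every alternative run. Without division by length the difference of the LDHA share, treated minus DMSO, was -16.3 percentage points and that of PDK1 -20.7, against -15.0 and -14.4 with it. With principal transcript length, an alternative chosen after seeing the data, that of PFKP was -7.57, against -6.62. The labels number replicates 1 to 3 in both groups, but same-numbered libraries did not deviate together (correlations -0.022, -0.007 and -0.007). With the replicate block (62% of tested genes called) 8 members were again called, and the count over all genes was 9653 in place of 9893. Depth limits PFKFB1, PDK4 and the other isozymes with 0 to 23 counts, for which a difference was not tested.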
